A study of Homo sapiens with 3 samples.

Results

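H3K4me3-only promoter peaks are the H3K4me3 peaks of H2087 cells that lay near the start of a protein-coding gene and shared no base with an H3K27ac peak. They were selected on the positions in the deposited peak lists, by an edge within 3 kb of the outer 5′ end of a protein-coding gene and 0 bases in common with any H3K27ac interval. The rule chose 7447 of 18585 H3K4me3 peaks (40.1%, 95% interval 39.4 to 40.8). Of the 11183 H3K4me3 peaks near a protein-coding start, they made up 66.6% (65.7 to 67.5), and the other 3736 shared at least 1 base with H3K27ac. The absence of H3K27ac and the distance to a start are therefore properties of the choice and not results.

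H2087 is an established human lung adenocarcinoma cell line, and the cells were untreated. Chromatin immunoprecipitation followed by sequencing was done with 1 library per mark, with antibody ab8580 against H3K4me3 and ab4729 against H3K27ac, and the study mapped both marks to define regions of histone modification in this tumour type. An input library without antibody is also part of the series and was not analysed here. Each mark had n = 1, so no test between the marks could be made. All intervals are exact binomial (Clopper-Pearson) or order-statistic 95% intervals. They include counting error alone and assume that nearby peaks are independent. The peak lists hold no read counts, so the depth of both libraries is unknown, and the lack of an H3K27ac peak may mean no mark or too few reads.

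H3K4me3, trimethylation of histone H3 at lysine 4, is placed at gene starts by the SET1 and MLL methyltransferase complexes, which are drawn to unmethylated CpG-rich DNA. H3K27ac, acetylation of lysine 27, is placed by the acetyltransferases CBP and p300 and accompanies active promoters and enhancers. Promoters with H3K4me3 and little acetylation are known for genes that are weakly transcribed, poised or held by Polycomb, but H3K27me3 and transcription were not measured in these libraries.

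The marker genes with H3K4me3 were mainly those of epithelial cells. H3K4me3 lay within 3 kb of 9 of 10 epithelial marker starts, all except the tight junction gene CLDN4. It lay near 1 of 8 leukocyte, 1 of 6 fibroblast, 0 of 4 endothelial and 0 of 5 neuroendocrine marker starts. Over all protein-coding starts the share with H3K4me3 was 43.3%. Among lung alveolar markers H3K4me3 was found at 3 of 8 (37.5%), near that share. These were the lung transcription factor NKX2-1, the surfactant protein SFTPD and the lipid transporter ABCA3. The surfactant genes SFTPA1, SFTPA2, SFTPB and SFTPC had no peak of either mark.

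The central 300 bases of 5 H3K4me3-only peaks are given on the plus strand of hg19, with each CpG in capitals, because CpG content differed between the kinds of peak described after them. EXOC6B, a subunit of the exocyst, had a strong peak in a CpG-rich window at a start without H3K27ac. SNRNP200, the helicase of the U5 spliceosome particle, had the most significant peak among splicing factors. ZNF654, a zinc finger protein, carried its H3K4me3 peak next to a separate H3K27ac peak. AGAP2, a GTPase-activating protein, and FOSL2, a subunit of the AP-1 factor, had H3K4me3-only peaks at starts where another H3K4me3 peak did overlap H3K27ac.
EXOC6B chr2:73052505-73052804: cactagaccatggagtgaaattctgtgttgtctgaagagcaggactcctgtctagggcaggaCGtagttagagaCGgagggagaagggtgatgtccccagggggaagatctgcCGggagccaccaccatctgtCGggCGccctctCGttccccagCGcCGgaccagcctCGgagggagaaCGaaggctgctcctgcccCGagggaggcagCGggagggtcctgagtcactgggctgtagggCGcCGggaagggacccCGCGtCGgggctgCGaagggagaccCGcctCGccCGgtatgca
SNRNP200 chr2:96987509-96987808: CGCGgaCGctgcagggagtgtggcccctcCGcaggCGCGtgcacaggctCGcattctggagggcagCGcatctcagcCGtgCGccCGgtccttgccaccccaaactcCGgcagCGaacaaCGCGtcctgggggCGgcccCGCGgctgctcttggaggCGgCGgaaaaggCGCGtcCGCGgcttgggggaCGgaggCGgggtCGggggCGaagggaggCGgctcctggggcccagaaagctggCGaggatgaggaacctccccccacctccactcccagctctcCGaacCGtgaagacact
ZNF654 chr3:88108471-88108770: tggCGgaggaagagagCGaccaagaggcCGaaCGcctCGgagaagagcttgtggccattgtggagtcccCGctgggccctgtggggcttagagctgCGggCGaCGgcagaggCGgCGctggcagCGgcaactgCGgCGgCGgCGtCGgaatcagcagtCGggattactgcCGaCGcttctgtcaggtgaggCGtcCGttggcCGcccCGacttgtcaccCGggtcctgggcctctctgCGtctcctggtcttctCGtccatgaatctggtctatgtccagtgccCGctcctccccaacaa
AGAP2 chr12:58138189-58138488: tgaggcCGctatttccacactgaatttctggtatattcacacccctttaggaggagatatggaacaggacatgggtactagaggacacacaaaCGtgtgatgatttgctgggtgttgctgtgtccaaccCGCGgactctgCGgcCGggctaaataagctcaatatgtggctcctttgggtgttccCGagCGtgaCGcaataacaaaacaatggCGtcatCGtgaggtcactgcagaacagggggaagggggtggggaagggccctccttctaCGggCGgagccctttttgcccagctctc
FOSL2 chr2:28617336-28617635: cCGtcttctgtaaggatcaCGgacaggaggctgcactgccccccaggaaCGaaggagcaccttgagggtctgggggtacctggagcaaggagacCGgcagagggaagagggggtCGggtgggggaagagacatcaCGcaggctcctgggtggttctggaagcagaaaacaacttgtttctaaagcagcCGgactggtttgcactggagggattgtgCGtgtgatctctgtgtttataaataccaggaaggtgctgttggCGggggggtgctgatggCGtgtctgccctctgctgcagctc

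In these windows the CpG count ran from 32 per 300 bases in SNRNP200 to 10 in FOSL2. The EXOC6B window was intronic, 515 bp inside the gene, with 21 CpG and an observed to expected CpG ratio of 0.664. The SNRNP200 window lay 650 bp upstream of the start, outside protein-coding genes, with a ratio of 0.832. The FOSL2 window lay 2171 bp inside its gene and had a ratio of 0.419. The printed windows do not stand for their kinds, since the shoulder peak of the homeobox gene NKX2-8 had 35 CpG and a ratio of 0.953.

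H3K4me3-only promoter peaks were narrow. Their median width was 308 bp (304 to 311, interquartile range 235 to 443), and the median −log10 q, the significance that the authors' peak caller gave each peak, was 2.97 (interquartile range 2.21 to 4.20, highest 15.9). Promoter peaks that overlapped H3K27ac had a median width of 444 bp and a median −log10 q of 3.87. A wider peak has more bases with which to overlap another, so this difference is tied to the rule and is only described. Several summits were listed in 4.81% of the H3K4me3-only peaks and in 17.6% of the overlapping ones, and 78 of the former (1.05%) reached 1 kb.

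The share of promoter H3K4me3 peaks without H3K27ac was lower at higher significance but stayed large. With promoter peaks divided into 4 equal parts by −log10 q, it was 78.9% (77.3 to 80.4) in the lowest part, 73.1% and 64.3% in the next, and 50.1% (48.2 to 51.9) in the highest. Even among the most significant promoter peaks, 1399 of 2795 had no base in common with H3K27ac. H3K4me3-only peaks were wider when only H3K4me3 peaks at or above the median −log10 q were used (median 358 bp, against 308 bp). A wider peak overlaps another more readily, so the fall is tied in part to the rule and is only described. The significance of a peak depends on depth, and an H3K27ac library of another depth could give other shares.

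**Figure D1:**
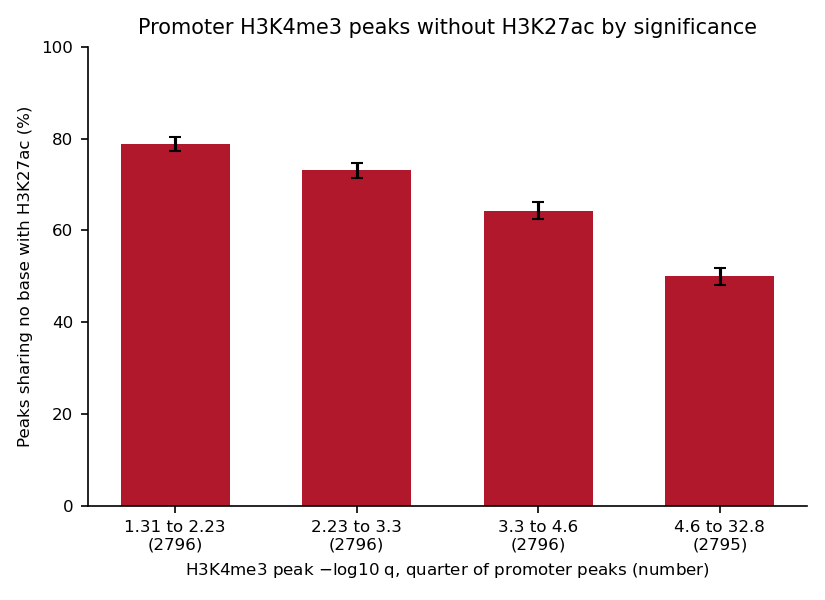
Bars give the percentage of promoter H3K4me3 peaks that shared no base with H3K27ac, in 4 equal parts by −log10 q, with the number of peaks in parentheses and exact 95% binomial intervals (1 library per mark). The share is 78.9% in the lowest part and 50.1% in the highest, a fall tied in part to the rule because wider peaks overlap more readily.

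The peaks fell into 3 kinds by what else lay within 3 kb of the nearest start, a division made after the values had been seen. At lone starts no H3K27ac peak was present, and these held 4350 of the H3K4me3-only peaks (58.4%, 57.3 to 59.5). A further 1273 (17.1%) were nearest to a start where H3K27ac formed a separate peak, so the marks stood side by side. The remaining 1824 (24.5%) were nearest to a start with another H3K4me3 peak that did overlap H3K27ac, and are called shoulder peaks here. The median gap to the nearest H3K27ac peak was 41.2 kb for the lone peaks, 0.835 kb for the side-by-side peaks and 0.592 kb for the shoulder peaks. The kinds were defined by H3K27ac near the start, so the order of these gaps is built into the division and is only described. The label "without H3K27ac" covered both promoters far from any H3K27ac peak and the flanks of promoters with one. The median gap over all H3K4me3-only peaks, 8.32 kb (interquartile range 0.833 to 52.4), described neither.

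Counted by gene, 6753 of 20163 protein-coding starts had at least 1 H3K4me3-only peak within 3 kb (33.5%). Of these starts, 3811 were lone, which is 18.9% of all protein-coding starts and 43.7% of the 8722 starts with any H3K4me3 peak. Another 1149 had a separate H3K27ac peak and 1793 also had an overlapping peak. For comparison, 1969 starts had only H3K4me3 peaks that overlapped H3K27ac, 1125 had H3K27ac without H3K4me3, and 10316 had neither. Lone starts were more numerous than the starts at which every H3K4me3 peak overlapped H3K27ac. At 43.7% they were still the minority of marked starts, since the others had a separate or an overlapping H3K27ac peak.

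Individual lone starts included some of the most significant H3K4me3 peaks in the list. TENM4, a teneurin involved in cell adhesion, had 1 peak of 969 bp with a −log10 q of 14.7, centred 634 bp inside the gene. PIH1D2 had a 470 bp peak with a −log10 q of 14.2, centred 353 bp upstream, where the divergent gene NKAPD1 also starts. CEP70, a centrosome protein, followed at 14.1, IGSF3, an immunoglobulin superfamily membrane protein, at 12.9, GOLGA5, a golgin of the Golgi apparatus, at 12.7, and EEPD1 at 12.4. Each of these 6 exceeded at least 99.3% of the H3K4me3 list, and their nearest H3K27ac peaks lay between 2214 bp (TENM4) and 43262 bp (EEPD1) away. The TENM4 value shows that a lone start could have an H3K27ac peak just past the 3 kb limit.

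FOS, the AP-1 transcription factor that serum and growth factors induce, was the clearest lone start among inducible genes. Its start had 4 H3K4me3-only peaks, centred 1162 and 578 bp upstream and 296 and 1484 bp inside the gene, with −log10 q of 3.72, 1.69, 12.7 and 1.62. No H3K27ac peak lay within 3 kb, and the nearest was 19416 bp from the strongest peak. KLF2, another immediate early transcription factor, had 1 peak of 331 bp and a −log10 q of 7.36, with the nearest H3K27ac peak 94532 bp away. DUSP1, a MAP kinase phosphatase of the same class, was arranged differently, with 3 H3K4me3-only peaks inside the gene and 1 H3K27ac peak of 204 bp centred 429 bp upstream.

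At side-by-side starts the marks could lie very close to each other without meeting. ZNF639, a zinc finger protein with the highest −log10 q of all H3K4me3-only peaks (15.9), had a 306 bp peak centred 216 bp inside the gene, 2308 bp from H3K27ac. TRAFD1, a negative regulator of innate immune signalling, had a 922 bp peak with a −log10 q of 14.1 and an H3K27ac peak 173 bp away. In ZNF654 the gap was 10 bp. EPCAM, the epithelial adhesion molecule, had 1 H3K4me3-only peak of 656 bp centred 554 bp upstream and 1 H3K27ac peak centred 1453 bp upstream. Among the 780 side-by-side starts whose H3K4me3-only peaks all lay inside the gene, the H3K27ac peak lay only upstream in 42.3% (38.8 to 45.9) and only downstream in 47.9% (44.4 to 51.5), so neither order of the marks prevailed.

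Shoulder peaks were led by AGAP2, with a 537 bp peak and a −log10 q of 15.4 that was centred 2399 bp upstream of the start and 251 bp from H3K27ac. That centre fell in an intron of another protein-coding gene. CEP57, a centrosome protein, had a 731 bp peak at 14.5, and MYC, the growth-promoting transcription factor, a 1246 bp peak at 13.1 that covered the start. The MYC shoulder peak ended 204 bp from H3K27ac, and the next H3K4me3 peak, 4275 bp wide with a −log10 q of 12.3, did overlap it. The H3K27ac peak at MYC began in the gap between these H3K4me3 peaks.

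**Figure D2:**
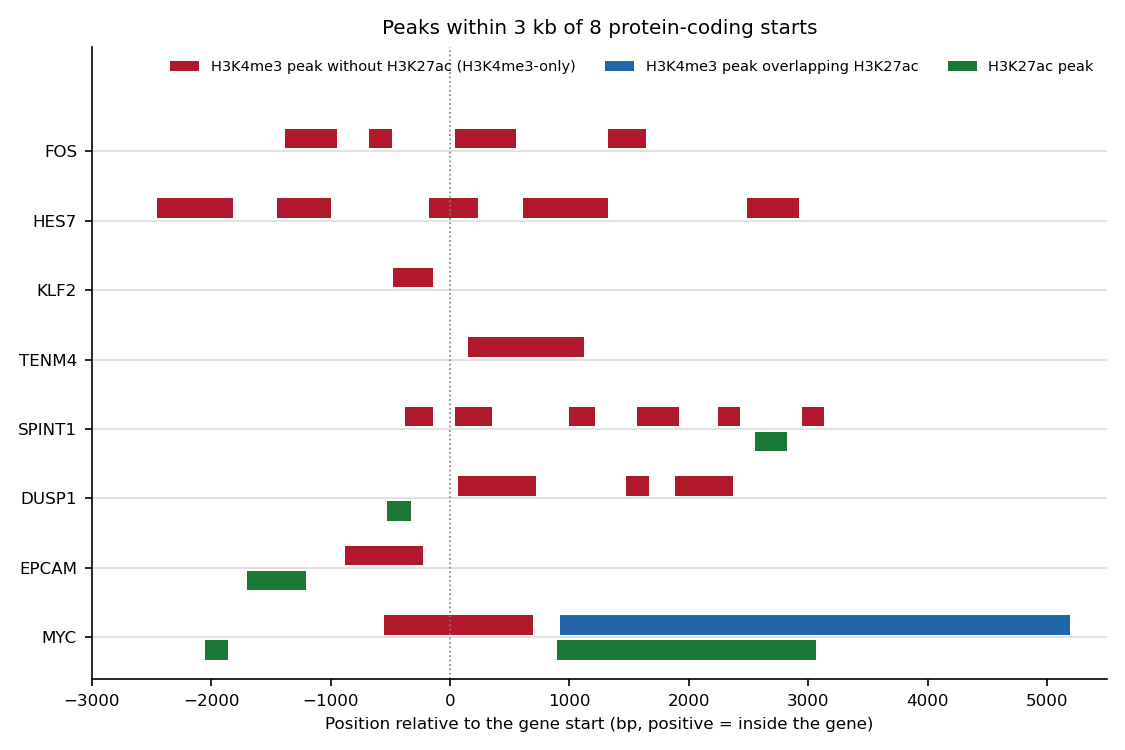
Peaks within 3 kb of 8 gene starts, drawn to scale by distance from the start, with H3K4me3-only peaks in red, H3K4me3 peaks that overlap H3K27ac in blue and H3K27ac peaks in green (1 library per mark). FOS, HES7, KLF2 and TENM4 show no green bar, SPINT1, DUSP1 and EPCAM show separate bars, and MYC shows an overlapping pair beside its H3K4me3-only peak.

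Most starts with an H3K4me3-only peak had 1 of them (4830 of 6753, 71.5%), 1567 had 2, 309 had 3, 44 had 4, 2 had 5 and 1 had 6. SPINT1, a serine protease inhibitor of epithelial cells, had 6, with −log10 q between 1.55 and 2.23, spread from 261 bp upstream to 3038 bp inside the gene. HES7, a transcriptional repressor of the somite clock, had 5 with values between 2.83 and 7.02. HES7 was a lone start, whereas SPINT1 had 1 H3K27ac peak, of 267 bp, in the gap between its last H3K4me3 peaks. Peaks were present on both sides of the start at 15.3% of starts, only inside the gene at 64.5% and only upstream at 20.2%. Repeated small peaks at 1 start share that start, and the counts of peaks weight such genes more heavily than the counts of genes do.

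The broadest H3K4me3-only peaks belonged to PDXK, pyridoxal kinase (2160 bp), CDK17, a cyclin-dependent kinase (1696 bp), ROMO1, a mitochondrial membrane protein (1631 bp), ADAMTS15, an extracellular protease (1621 bp), and MTBP, an MDM2-binding protein (1535 bp). CDK17, ADAMTS15 and MTBP were lone, with H3K27ac 33134, 58097 and 138761 bp away. PDXK and ROMO1 had H3K27ac 236 and 539 bp away. Their −log10 q ran from 3.76 in MTBP to 8.21 in ROMO1, so the broad peaks were not the most significant ones.

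The peaks lay mainly inside genes. Their centres were downstream of the nearest start in 75.9% (74.9 to 76.8), against 79.5% (78.2 to 80.8) of the promoter peaks with H3K27ac, and the median centre was 457 bp inside the gene, against 474 bp. Only 5.53% covered the start itself. By 200 bp bins, 1127 centres (15.1%) fell 200 to 400 bp inside the gene, 168 (2.26%) in the bin just upstream of the start, and 421 (5.65%) between 600 and 400 bp upstream. The centre fell in an intron for 51.5%, in an untranslated exon for 15.1%, in a coding exon for 11.2% and outside protein-coding genes for 13.3%. The overlapping peaks had the same low bin before the start (1.85%), so this trough was shared by both kinds of promoter peak.

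The concentration just inside the gene was sharpest at lone starts and weakest among shoulder peaks. The bin 200 to 400 bp inside the gene held 18.3% of the lone peaks, 12.7% of the side-by-side peaks and 9.16% of the shoulder peaks. Shoulder peaks were centred downstream in 68.1% (66.0 to 70.3), lone peaks in 78.0% (76.7 to 79.2). Their median distance from the start was 928 bp, against 552 bp for lone peaks and 597 bp for the peaks with H3K27ac. A shoulder peak shares its start with another peak, and that peak takes up room near the start, so a greater distance is partly built into this kind.

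**Figure D3:**
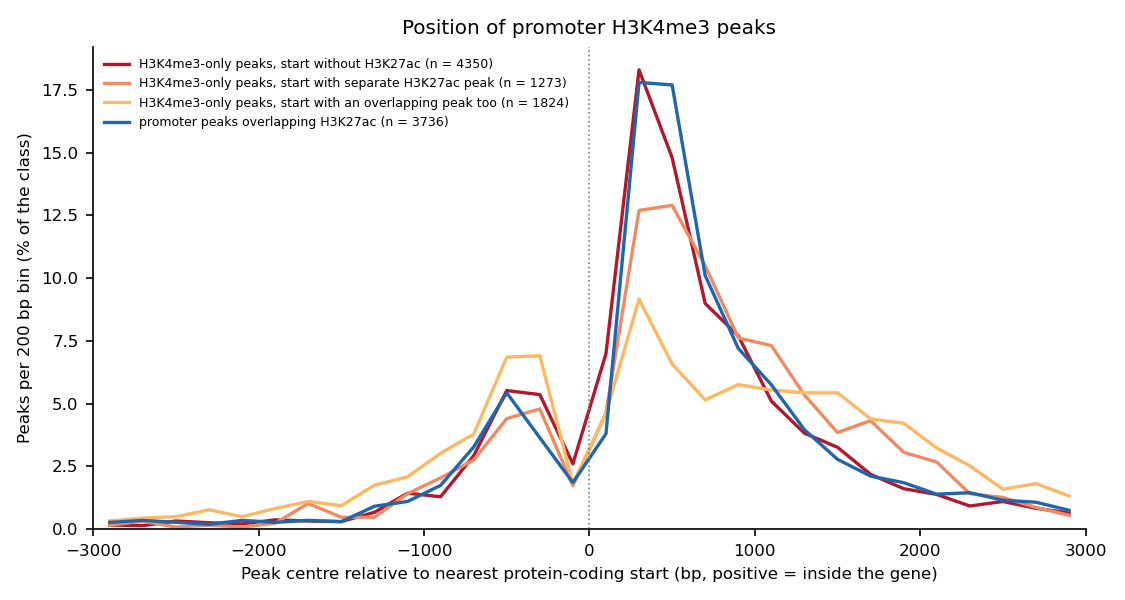
Lines give the percentage of peaks of each kind whose centre fell in each 200 bp bin around the nearest protein-coding start, with positive positions inside the gene. Lone peaks reach 18.3% between 200 and 400 bp inside the gene, shoulder peaks (start with an overlapping peak too) to 9.16%, and all kinds dip in the bin before the start.

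CpG content varied more between the kinds of H3K4me3-only peak than between these peaks and the overlapping ones. A window of 300 bases at the centre was called CpG-rich when its GC content was at least 50% and its observed to expected CpG ratio at least 0.6. It was CpG-rich in 52.5% of all H3K4me3-only peaks (51.4 to 53.7) and in 57.1% (55.5 to 58.7) of the overlapping ones. Within the former, the share was 59.9% (58.5 to 61.4) for lone peaks, 46.4% (43.7 to 49.2) for side-by-side peaks and 39.1% (36.9 to 41.4) for shoulder peaks. The lower value for all H3K4me3-only peaks came with the side-by-side and shoulder peaks, and lone peaks were not below the overlapping ones. The share also varied with significance. In the 4 parts by −log10 q, from lowest to highest, it was 45.1%, 52.3%, 54.3% and 62.4% for H3K4me3-only peaks. For overlapping peaks it was 50.1%, 51.3%, 58.6% and 62.2%. Kind and significance were not separated. When peaks with H3K27ac within 1 kb were moved to the other group the order turned, to 55.8% without and 52.5% with H3K27ac.

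The CpG-rich share was lower beyond 500 bp from the start than within it for every kind, and in each bin of distance shoulder peaks were below both lone and overlapping peaks. Within 500 bp of the start, 74.4% of lone peaks (72.4 to 76.3), 71.4% of side-by-side peaks and 63.9% of shoulder peaks (59.7 to 67.9) were CpG-rich, against 72.9% (70.5 to 75.1) of overlapping peaks. Between 1000 and 2000 bp the shares were 39.3% (36.0 to 42.7), 25.4%, 21.8% (18.5 to 25.4) and 40.3%. From 2000 bp on, lone peaks were at 40.5% (34.7 to 46.5) and overlapping peaks at 30.5% (25.3 to 36.0). The intervals of side-by-side and shoulder peaks overlapped in every bin. The windows 250 bases before to 50 bases after the start were CpG-rich in 77.1% of lone, 75.7% of side-by-side and 78.6% of shoulder starts, and in 76.4% of starts with only overlapping peaks. At the starts themselves the kinds were therefore alike, and the contrast lay in the DNA under the peaks. Of starts without H3K4me3, 37.9% had a CpG-rich window.

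**Figure D4:**
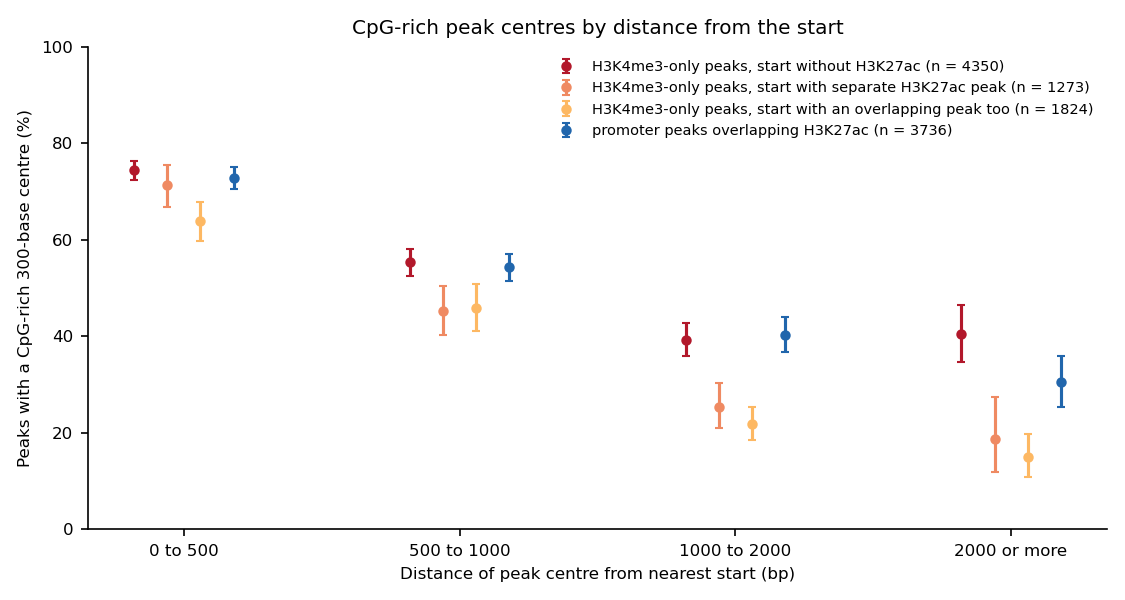
Points give the percentage of peaks with a CpG-rich window of 300 bases at the centre, by distance of the centre from the nearest start, with exact 95% binomial intervals. Lone peaks (start without H3K27ac) and overlapping peaks are at 74.4% and 72.9% within 500 bp and at 40.5% and 30.5% from 2000 bp on, and the shoulder peaks are below both in every bin of distance.

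The CpG-rich share was also higher farther from H3K27ac. It was 44.4% for H3K4me3-only peaks less than 500 bp from an H3K27ac peak, 37.8% between 1 and 3 kb, 57.7% between 10 and 50 kb and 66.6% for the 1924 peaks more than 50 kb away. The median −log10 q was nearly flat over the same bins, between 2.95 and 3.11. The farthest were NKAP on chromosome X, with the nearest H3K27ac peak 17101059 bp away, and PTGR3 and CNDP2 on chromosome 18, at 15536350 and 14779296 bp. All 3 had more than 30 CpG in the window, and these chromosomes had few peaks of either mark.

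Short sequence motifs were counted in the same windows on both strands, and none of the motifs contains another. The GC box bound by SP and KLF factors (GGGCGG) was held by 44.0% of H3K4me3-only peaks and 47.6% of overlapping ones, and among CpG-rich windows alone by 63.4% (61.8 to 64.9) and 64.4% (62.3 to 66.4). The CCAAT box (CCAAT) was held by 18.8% and 16.9%, and the TATA box (TATAAA) by 5.13% (4.64 to 5.66) and 3.27% (2.72 to 3.89). Among CpG-rich windows the TATA box shares were 2.22% and 1.87%, with overlapping intervals. The ETS motif (CCGGAAG) was found in 4.22% and 4.23%, the AP-1 motif (TGAGTCA) in 1.89% and 2.14%, the E-box (CACGTG) in 4.59% and 4.20%, the YY1 motif (AAGATGGC) in 0.846% and 1.04%, the NRF1 core (CGCATGCG) in 0.242% and 0.187%, and the CREB and ATF motif (TGACGTCA) in 0.161% and 0.134%. Every motif was more frequent in the 300 bases around all protein-coding starts, for example 52.1% for the GC box, 11.8% for the ETS motif and 35.8% for the CCAAT box. Among CpG-rich windows the intervals of H3K4me3-only and overlapping peaks overlapped for each of the 9 motifs.

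Gene groups were compared by the share of their H3K4me3-marked starts that were lone, beside 43.7% over all genes. Cytosolic ribosomal proteins were lowest, with 16 of 63 marked starts lone (25.4%, 15.3 to 37.9), and zinc finger genes were highest among lists of at least 10 marked starts, with 126 of 239 (52.7%, 46.2 to 59.2). The intervals of these lists did not reach the value over all genes, and those of the other 14 lists of at least 10 marked starts included it. With only the upper H3K4me3 peaks by −log10 q, the interval of the ribosomal proteins (25.9%, 15.0 to 39.7) included the 38.0% over all genes. With the starts of every transcript, which are not independent within a gene, mitochondrial ribosomal proteins (24.5%) and complex I genes (31.2%) were also below the 40.2% over all starts beyond their intervals, and splicing factors (48.4%), cilium assembly genes (48.9%) and autophagy genes (49.8%) were above it. Neuronal genes, with only 6 marked gene starts, were above the 40.2% too (62.0%, 50.4 to 72.7). No set test was made, and genes of a list can share a promoter.

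**Figure D5:**
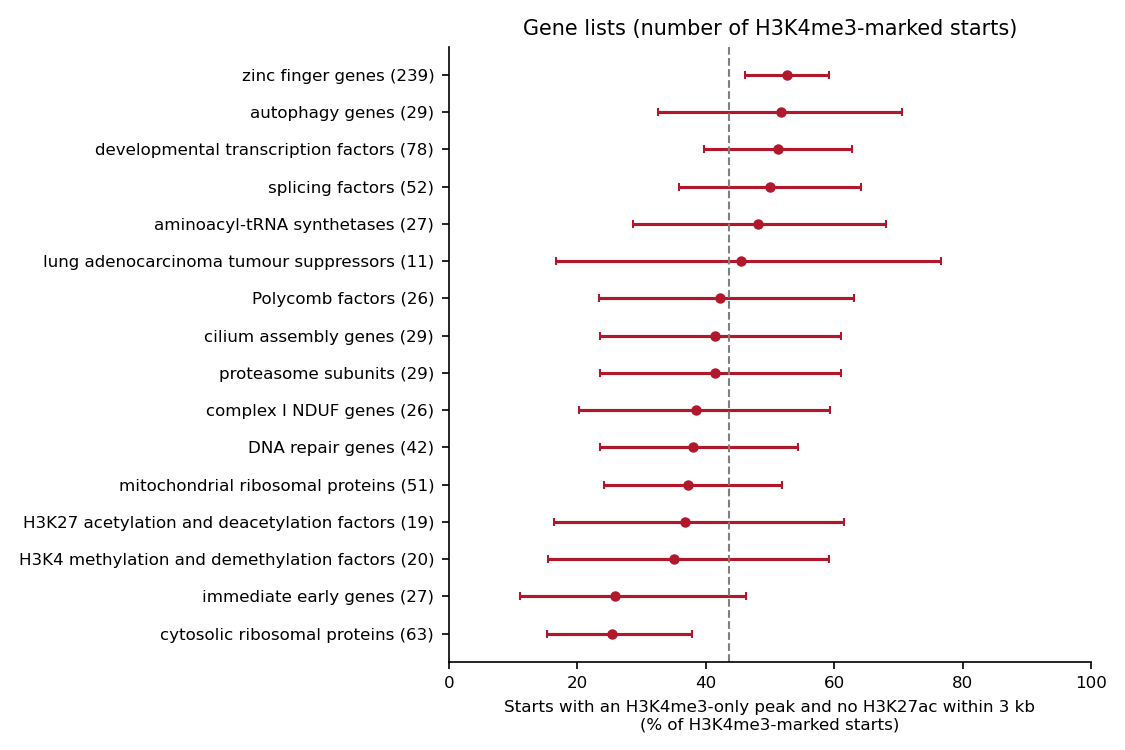
Points give, for lists with at least 10 H3K4me3-marked starts, the percentage of those starts that were lone (an H3K4me3-only peak and no H3K27ac within 3 kb), with exact 95% binomial intervals and the number of marked starts in parentheses. The dashed line is the value over all genes, 43.7%, with zinc finger genes above it at 52.7% and cytosolic ribosomal proteins below it at 25.4%.

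Among zinc finger genes, a large family of DNA-binding repressors, 185 of 526 starts had an H3K4me3-only peak (35.2%, beside 33.5% over all genes). Lone examples were ZNF672, with a −log10 q of 11.0 and H3K27ac 7877 bp away, ZFP69 and ZNF502 with 7.36 each and H3K27ac 102906 and 151979 bp away, and ZNF418 with 7.24. Among ribosomal protein genes 46 of 83 starts had an H3K4me3-only peak, mostly beside H3K27ac. RPS3 (−log10 q 9.97) and RPLP2 (7.34) had shoulder peaks, and RPL7 (7.53) and RPL34 (6.39) were lone, the latter with H3K27ac 1573877 bp away.

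Housekeeping groups otherwise sat near the value over all genes. Of marked starts, 26 of 52 splicing factor starts were lone (95% interval 35.8% to 64.2%), with SNRNP200 at a −log10 q of 7.01, SNRNP70 at 6.39 and PRPF3 at 6.25, all core spliceosome proteins. Lone shares were 48.1% for aminoacyl-tRNA synthetases, 51.7% for autophagy genes, 41.4% for proteasome subunits, 41.4% for cilium assembly genes, 38.5% for complex I genes, 38.1% for DNA repair genes and 37.3% for mitochondrial ribosomal proteins. Examples were the autophagy genes ATG4B (7.36) and ATG3 (7.02), the complex I subunits NDUFB5 (9.53) and NDUFAB1 (6.30), and the repair genes POLB, XRCC5 (6.39 each) and MSH3 (6.22), all lone. The intervals of these lists included the 43.7% over all marked starts, so lone starts were not particular to them.

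Immediate early genes, which respond to growth signals within minutes, had H3K4me3-only peaks at 25 of 32 starts (78.1%, 60.0 to 90.7, beside 33.5% over all genes), more often as shoulders than alone. Of these starts 12 also had an overlapping peak, among them MYC, FOSL2 (8.17), ZFP36 (5.41) and JUNB, 6 had a separate H3K27ac peak, among them DUSP1 (6.39), and 7 were lone, namely FOS, KLF2, SRF, EGR1, ATF3, EGR3 and CCN2. The most significant SRF peak nevertheless lay 1533 bp from H3K27ac. H3K4me3 of any kind was at 84.4% of immediate early starts, beside 43.3% over all genes. Of marked starts 92.6% had an H3K4me3-only peak, beside 77.4%, so the contrast with 33.5% includes the more frequent marking. A marked start was lone in 25.9% (11.1 to 46.3), an interval that includes 43.7%. When H3K27ac peaks below the median −log10 q were left out the share was 55.6%, while over all genes it was 62.1%.

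Developmental transcription factors of the HOX, FOX, NKX and related families, which Polycomb often holds silent, had H3K4me3 at 78 of 208 starts. This was 37.5%, beside 43.3% over all protein-coding starts. Of the marked starts 40 were lone (51.3%, 39.7 to 62.8). The most significant H3K4me3-only peaks of this list were not lone. FOXA1, a pioneer factor of lung epithelium, NKX2-8 and FOXP1 (7.97) led the list and had shoulder peaks with H3K27ac between 90 and 389 bp away. HOXD1 was lone, with peaks of 6.25 and 2.03 and the nearest H3K27ac peak 1021464 bp away, and PBX4, a HOX cofactor, was lone with 5.60. Neuronal genes had H3K4me3-only peaks at 5 of 36 starts (13.9%, 4.67 to 29.5, beside 33.5% over all genes). Of these NLGN1, CPLX1, SYT1 and MAP2 were lone and DLG4 was not. H3K4me3 of any kind was at 16.7% of neuronal starts, beside 43.3% over all genes. Of marked neuronal starts 83.3% had an H3K4me3-only peak, beside 77.4%. Olfactory receptors, silent outside the nose, had H3K4me3-only peaks at 3 of 399 (0.752%, 0.155 to 2.18, beside the same 33.5%). These were OR10J5, OR4K3 and OR1F1, their only starts with H3K4me3.

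Tumour suppressor genes of lung adenocarcinoma had H3K4me3-only peaks at 9 of 22 starts (40.9%, 20.7 to 63.6), near the 33.5% over all genes. ATM, the DNA damage kinase (3.48), the chromatin remodeller subunits ARID2 (4.54) and ARID1A (2.97), and RB1, the retinoblastoma cell cycle regulator (2.23), were lone. The most significant ARID1A peak nevertheless lay 1285 bp from H3K27ac. The histone methyltransferase SETD2 (3.48), TSC2 (2.93) and RASA1 (2.26) also had an overlapping peak.

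Some genes in the lists of histone-modifying and associated factors, and some Polycomb factors, had H3K4me3-only peaks at their own starts. In a list drawn up for H3K4 methylation and demethylation, with associated factors, 18 of 27 starts had such a peak (66.7%, 46.0 to 83.5, beside 33.5% over all genes). SETD1A (9.76) lay beside a separate H3K27ac peak, KMT2A (8.88) was a shoulder and 7 starts were lone. Of these 27 starts 74.1% had H3K4me3 of any kind, beside 43.3% over all genes. Of the marked ones 90.0% had an H3K4me3-only peak, beside 77.4%. In a list of acetyltransferases, deacetylases and associated factors, 14 of 29 starts had an H3K4me3-only peak (48.3%, 29.4 to 67.5). The deacetylase HDAC5 (8.61) and the acetyltransferase KAT6A (8.36) were lone, and HDAC1 (6.35) and HDAC3 (5.66) had shoulder peaks. The gene of p300, EP300, had no peak, and that of CBP, CREBBP, had only H3K4me3 peaks that overlapped H3K27ac. Among Polycomb factors 17 of 42 starts had an H3K4me3-only peak (40.5%, 25.6 to 56.7). SUZ12 (6.30), EPOP (4.63) and PCGF5 (4.36) were lone and PCGF2 (6.28) had a shoulder peak. Both intervals included the 33.5% over all genes. In these lists 35.0%, 36.8% and 42.3% of marked starts were lone, and their intervals included the value over all genes.

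The epithelial markers with H3K4me3 also had H3K27ac within 3 kb, overlapping it at all of them except EPCAM. None of the 9 marked starts was lone (0 of 9, upper limit 33.6%), beside 43.7% over all marked starts. KRT8 and KRT18 start within 3 kb of each other, so the 9 starts are not independent. MUC1 (8.14), ELF3 (3.63) and ESRP1 (2.49) had shoulder peaks, EPCAM (4.28) a separate H3K27ac peak, and the keratins KRT7, KRT8, KRT18 and KRT19 and the cadherin CDH1 had only H3K4me3 peaks that overlapped H3K27ac. Of the alveolar markers, NKX2-1 (2.95) had a shoulder peak while SFTPD (2.49) and ABCA3 (1.88) were lone with weak peaks.

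Chromosomes differed in how much of their promoter H3K4me3 lacked H3K27ac. Of those with at least 50 promoter H3K4me3 peaks, chromosome 13 had the highest share (110 of 125, 88.0%, 81.0 to 93.1), followed by chromosome 6 (308 of 378, 81.5%) and chromosome 4 (212 of 276, 76.8%). Chromosomes 11 (56.9%), 12 (58.4%) and 8 (61.3%) had the lowest. Chromosome 13 had 182 H3K27ac peaks in all and chromosome 11 had 1940. Copy number moves the significance of peaks of both marks in a tumour line and was not tested.

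Peaks just inside and just outside the limits of the rule show how fine the choice was. At F3, UBE4B and ROCK2 the peak edge lay 2999, 2996 and 2996 bp from the start, and at SOCS2, PWWP2A and LACTB2 it lay 3004, 3014 and 3015 bp away. FKBP2 and VPS13D had gaps of 1 and 2 bp to H3K27ac, where 1 means that the peaks touched, and PUM2, BAIAP2 and E2F3 shared 2, 2 and 3 bases. The UBE4B peak consisted entirely of words of 32 bases that occur more than once in the genome. Such words made up over 50% of 5.59% of the H3K4me3-only peaks (5.08 to 6.13) and of 3.19% (2.65 to 3.80) of the overlapping ones.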

How the data were processed

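Peak lists for H3K4me3 and H3K27ac were analysed. Per the submitters' processing notes, bcl2fastq 1.8.4, Bowtie 1.1.1, SAMtools 1.2, Picard 1.118, MACS2 2.1.0 and ChIPseeker 1.6.6 were used on hg19. The study's methods give the input as saved for normalization. Whether it was the control in peak calling, the threshold and the treatment of duplicates are not given in the sources used here. The deposited last column, without a header, was read from its values as the −log10 q of each summit, since its smallest value was 1.306 for H3K4me3 and 1.303 for H3K27ac against 1.301 for a q of 0.05. The 20282 H3K4me3 and 25275 H3K27ac entries gave 18585 and 24096 distinct intervals, each with its highest −log10 q.

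Starts came from GENCODE 44 mapped to hg19, and sequence from the GRCh37 primary assembly. Each peak was assigned to the nearest start within 3 kb. Copy number of 32-base words, taken every 20 bases, came from the same assembly. Code was tested on planted intervals. Python 3.11.15, numpy 2.4.6, pandas 2.3.3 and scipy 1.17.1 were used.

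The peaks and the 18 gene lists were chosen with earlier results of these data known. Named genes were those with the highest −log10 q, width, gap to H3K27ac and number of peaks, those nearest each limit of the rule, and the most significant of each list. The 3 kinds of start, their leading genes, the lone share of marked starts and the choice of further list members were added after values had been seen. With 1 library per mark no test was made. Some items are not reported here.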

Additional observations from a re-analysis of the deposited data

How the results depend on the processing

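No paired analysis was possible because only 1 library of either mark exists in these data, and no replicate was left out for the same reason. Unknown depth limits every statement on absent H3K27ac.

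The number of H3K4me3-only promoter peaks was 3982 when only H3K4me3 peaks at or above the median −log10 q were used and 4875 when peaks within 1 kb were merged, and stayed within a factor of 1.5 of 7447 otherwise. Counting H3K27ac within 1 kb as overlap changed their share of promoter peaks to 47.7%, the share with H3K27ac within 1 kb to 0 by construction, the CpG-rich shares without and with H3K27ac to 55.8% and 52.5%, and the share at lone starts to 81.1%. A limit of 1 kb to the start gave a share of promoter peaks of 64.6%, with 25.9% within 1 kb of H3K27ac, 73.2% downstream, 61.2% CpG-rich without and 62.4% with H3K27ac, 16.5% of protein-coding starts with such a peak and no H3K27ac, and 63.6% of peaks at lone starts. A limit of 5 kb gave 51.2% CpG-rich without and 55.1% with H3K27ac, 19.9% of starts and 56.7% of peaks at lone starts. Starts of every transcript gave 68.4% downstream, 50.3% and 53.2% CpG-rich and 14.9% of starts.

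The upper H3K4me3 peaks gave a share of 59.7%, with 56.3% and 59.9% CpG-rich and 11.8% of starts. The upper H3K27ac peaks gave 78.2%, with 17.6% within 1 kb, 26.9% of starts and 73.1% of peaks at lone starts. Merging gave 60.2%, with 15.3% within 1 kb, 78.1% downstream, 57.2% and 59.7% CpG-rich and 71.9% of peaks at lone starts. Leaving out peaks with over 50% multi-copy words, an alternative chosen after seeing the data, left each of these values within its interval. Why the values moved was not tested beyond what each alternative removes or adds.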
